A study of Mus musculus with 12 samples.

Results

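The genes described here are 10 genes of the fibroblasts and collagen layers that wrap the brain: the fibrillar collagen genes Col1a1, Col1a2 and Col3a1, the small leucine-rich proteoglycan genes Dcn, Lum, Fmod and Ogn, the transporter genes Slc6a13 and Slc13a4, and the growth factor gene Igf2. They were taken by name: all probes whose gene name in the scan files was 1 of the 10 were used. Each gene had 1 probe and 1 spot per array, so 10 probes of 55681 and 10 genes of 26497 tested are described, and all 10 were well above background on all 12 arrays. The samples were whole brains of BALB/c mice without treatment, on 1-colour Agilent arrays labelled with Cy3. The 4 groups, of 3 mice each, were wild type at 6 weeks, wild type at 12 weeks, interleukin-18 knockout at 6 weeks and interleukin-18 knockout at 12 weeks. Interleukin-18 is a cytokine of the interleukin-1 family. The labels do not give the sex of the mice, how the Il18 allele was made, or whether the meninges and the choroid plexus stayed on the brain, which was measured whole.

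Fibroblasts of the dura, arachnoid and pia make the collagen sheets that enclose the brain, and smaller numbers lie along its larger vessels. They spin type I and type III collagen into fibrils, while small proteoglycans such as decorin, lumican, fibromodulin and osteoglycin bind the fibrils and set their width and spacing. Fibroblasts of the arachnoid and pia also carry solute transporters, among them a transporter of GABA and taurine encoded by Slc6a13 and a sodium-sulfate transporter encoded by Slc13a4, and they secrete insulin-like growth factor 2, which the choroid plexus makes too. In RNA of a whole brain, fewer cells of a type and less RNA per cell cannot be told apart.

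The 60-base probe of each gene reads 1 place in its transcript, and its position on mm9 is given in the files. The probes lie at chr11:94813115-94813174 for Col1a1, chr6:4490619-4490678 for Col1a2 and chr1:45405589-45405648 for Col3a1. Those of the proteoglycan genes lie at chr10:96980233-96980292 for Dcn, chr10:97035210-97035269 for Lum, chr1:135943998-135944057 for Fmod and chr13:49719549-49719608 for Ogn. The remaining probes lie at chr6:121287597-121287656 for Slc6a13, chr6:35217971-35218030 for Slc13a4 and chr7:149839661-149839720 for Igf2. The probes of Slc13a4 and Igf2 are on the minus strand and the other 8 on the plus strand. Exon annotation of that build was not used here. The first 30 bases of the probes of the 4 genes that passed a test in this study are shown, so that the spot behind each such value can be identified.
Col1a1: tgaccaactgaacgtgaccaaaaaccaaaa
Dcn: aacaccttcagatgtgtctatgtgcgttct
Slc6a13: ggtccacacattgtgacgtgcccgaatcaa
Fmod: ggcaagcgtggttttcaaaacatgagaaag

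Promoter windows, the 250 bases before a RefSeq start on GRCm38.p6, were held for 7 of the 10 genes in 12 windows, and 5 are shown. Slc6a13, Slc13a4 and Ogn are shown because their levels followed each other between animals of a group. Col1a2 and Col3a1 are shown because their 12-week genotype differences had opposite signs. Neither difference was called, and their signs were the same in a fit with slide as a block, described below. Capitals mark a TATAAA motif (the core of a TATA box), a CCAAT motif (a CCAAT box) and a GGGCGG motif (a GC box), each searched on both strands.
Slc6a13 (chr6:121300038-121300287, plus strand): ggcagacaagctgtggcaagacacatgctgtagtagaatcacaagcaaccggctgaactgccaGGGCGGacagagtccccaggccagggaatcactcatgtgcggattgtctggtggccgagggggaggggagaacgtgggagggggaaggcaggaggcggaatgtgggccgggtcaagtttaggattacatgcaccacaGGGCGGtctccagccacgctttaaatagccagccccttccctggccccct
Slc13a4 (chr6:35308127-35308376, minus strand): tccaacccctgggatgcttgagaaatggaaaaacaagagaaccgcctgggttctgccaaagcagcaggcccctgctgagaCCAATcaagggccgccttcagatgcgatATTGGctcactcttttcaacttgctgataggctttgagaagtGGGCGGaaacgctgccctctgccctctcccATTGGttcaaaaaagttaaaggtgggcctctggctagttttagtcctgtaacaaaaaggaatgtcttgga
Ogn (chr13:49607765-49608014, plus strand): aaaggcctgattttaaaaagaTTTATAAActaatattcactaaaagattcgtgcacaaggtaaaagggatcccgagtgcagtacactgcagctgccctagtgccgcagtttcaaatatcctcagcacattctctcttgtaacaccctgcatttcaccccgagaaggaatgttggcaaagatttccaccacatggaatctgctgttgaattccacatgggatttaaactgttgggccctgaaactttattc
Col1a2 (chr6:4505368-4505617, plus strand): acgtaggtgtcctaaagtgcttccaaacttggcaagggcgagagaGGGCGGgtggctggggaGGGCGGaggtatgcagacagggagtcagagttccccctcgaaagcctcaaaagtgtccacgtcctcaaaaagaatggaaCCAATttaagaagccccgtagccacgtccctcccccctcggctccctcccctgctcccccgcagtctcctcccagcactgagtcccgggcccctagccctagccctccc
Col3a1 (chr1:45311288-45311537, plus strand): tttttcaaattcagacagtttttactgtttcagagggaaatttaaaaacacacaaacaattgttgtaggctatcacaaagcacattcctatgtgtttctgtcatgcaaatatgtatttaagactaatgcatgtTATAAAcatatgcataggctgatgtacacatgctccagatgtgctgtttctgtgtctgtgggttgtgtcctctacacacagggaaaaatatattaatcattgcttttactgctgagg

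No marked motif was in the windows of all 3 co-varying genes, while GGGCGG was in those of Slc6a13 and Slc13a4. The Slc6a13 window, the first of its 3, has GGGCGG at 187 and 50 bases before the start, the Slc13a4 window has CCAAT at 170, 142 and 70 bases and GGGCGG at 100 bases, and the Ogn window has TATAAA at 229 and 227 bases, which overlap on opposite strands. Col1a2 has CCAAT at 109 bases and GGGCGG at 205 and 188 bases, and Col3a1 has TATAAA at 117 bases. GC content was 60.8% for Slc6a13, 50.4% for Slc13a4, 42.0% for Ogn, 62.0% for Col1a2 and 35.2% for Col3a1. Of all 32851 windows, 12.4% held TATAAA, 33.8% CCAAT and 32.7% GGGCGG, so matches of this kind are common.

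Levels are given as log2 of the processed signal minus log2 of the 75th percentile of the same array, so a level of 0 is the brightness of that percentile, and levels of different probes are not compared. A gene was called where its adjusted p, by limma with Benjamini-Hochberg adjustment over all genes, was under 0.05. The share of spots well above background ran from 65.9% to 76.2% per array, and 12-week wild type replicates 2 and 3 had the largest. The arrays came from 2 slides that do not cut evenly across the groups: slide 1 held every wild type brain plus replicates 1 and 2 of the 6-week knockouts, and slide 2 held replicate 3 of the 6-week knockouts plus every 12-week knockout. On the first principal component, 38.8% of the variance over all genes, 6-week knockout replicate 3 lay at 33.9, near the 12-week knockouts at 41.9 to 47.7 and away from the other 6-week knockouts at -5.11 and -14.7. At 12 weeks genotype and slide cannot be told apart by any within-slide comparison. A fit with slide as a block was made for every comparison, and in the 12-week comparison its slide term rests on the 3 arrays of 6-week knockout alone. All 6-week wild types lay in column 2 of a slide and all 6-week knockouts in column 1, so at 6 weeks genotype and column cannot be told apart by any within-column comparison. A block for column rests there on the 3 arrays of 12-week wild type alone. The probe of Il18 had a mean level of 1.64 and 1.70 in wild type at 6 and 12 weeks and of -0.21 and -0.24 in knockout at these ages, as labelled, and remained above background there.

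Col1a1, the gene of the alpha-1 chain of type I collagen, was higher in 12-week knockout than in 12-week wild type by 0.49 ± 0.10 log2 (adjusted p 0.00911), or 1.40-fold. Its levels were -0.14, -0.24 and -0.02 in 6-week wild type, -0.69, -0.47 and -0.59 in 12-week wild type, 0.03, 0.00 and 0.02 in 6-week knockout and -0.31, 0.09 and -0.07 in 12-week knockout. The 3 wild type brains at 12 weeks were the lowest of all 12, below every other animal, and the 12-week genotype groups did not overlap. The 95% confidence interval of the 12-week difference was 0.26 to 0.72 log2. It was called whichever of the 12 arrays was left out, with differences from 0.39 to 0.59 log2. When slide was a block the difference was of the same size but was not called, at 0.48 ± 0.19 with an adjusted p of 0.598. At 6 weeks the difference was 0.15 ± 0.10 log2 with an adjusted p of 0.446, and over both ages it was 0.32 ± 0.07 log2, which was called (adjusted p 0.0116) but not with slide as a block (0.32 log2, adjusted p 0.445) or slide column as a block (0.21 log2, adjusted p 0.361). The 6-week groups did not overlap either, since the lowest knockout lay above the highest wild type. Without 6-week knockout replicate 3, the 6-week difference was 0.15 log2 on slide 1. A block for slide column gave -0.0090 ± 0.19 log2.

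With age, the 12-week wild types lay 0.45 log2 below the 6-week wild types for Col1a1 (SE 0.10, adjusted p 0.0854), with no overlap. In knockouts the age difference was -0.11 ± 0.10 log2 (adjusted p 0.502) and the groups overlapped. The change of the genotype difference from 6 to 12 weeks was 0.34 ± 0.15 log2 with an adjusted p of 0.245, so a change of the genotype effect with age was not shown. In order of level, 6-week knockout, 12-week knockout and 6-week wild type overlapped as neighbours and 12-week wild type stood apart below them.

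Col1a2 encodes the second chain that type I collagen needs, the alpha-2 chain. Its levels were 2.45, 2.21 and 2.37 in 6-week wild type, 2.02, 2.32 and 2.17 in 12-week wild type, 2.15, 2.18 and 2.55 in 6-week knockout and 2.38, 2.60 and 2.49 in 12-week knockout. At 12 weeks the lowest knockout lay above the highest wild type, and the difference was 0.32 ± 0.12 log2 with an adjusted p of 0.0675, short of a call. Knockout replicate 3 at 6 weeks, on slide 2, lay within the range of the 12-week knockouts, whereas replicates 1 and 2 on slide 1 lay below all of them. A block for slide gave a 12-week difference of -0.06 ± 0.17 with an adjusted p of 0.947, of the opposite sign. Scaling to each array's median gave 0.44 log2 with an adjusted p of 0.0226, a call, and so did leaving out 6-week knockout replicate 3, at an adjusted p of 0.0253. The age differences were -0.17 log2 in wild type and 0.20 log2 in knockout, with overlap in both. The change of the genotype difference from 6 to 12 weeks was 0.37 ± 0.17 log2 (adjusted p 0.267), and without 6-week knockout replicate 3 its adjusted p was 0.0419.

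Col3a1 encodes type III collagen, which forms thinner fibrils and is spun together with type I. Its levels were -1.51, -1.23 and -1.21 in 6-week wild type, -1.58, -1.25 and -1.46 in 12-week wild type, -1.26, -1.35 and -1.21 in 6-week knockout and -1.72, -1.63 and -1.80 in 12-week knockout. All 3 knockouts at 12 weeks lay below the other 9 brains. The 12-week knockouts lay 0.28 log2 below the wild types of their age (SE 0.11, adjusted p 0.0629) and 0.44 log2 below the 6-week knockouts (SE 0.11, adjusted p 0.0579). Both values missed the threshold. The 12-week difference passed with the slide column as a block (-0.36 log2, adjusted p 0.0469), as it did without 6-week wild type replicate 1 or 12-week wild type replicate 1 (lowest adjusted p 0.0433). The age difference in knockout passed without 6-week knockout replicate 3 (adjusted p 0.0328). The values with slide as a block were -0.38 ± 0.19 with an adjusted p of 0.666 at 12 weeks, and -0.50 ± 0.15 with an adjusted p of 0.434 for age in knockout. In wild type the age difference was -0.12 ± 0.11 log2 and at 6 weeks the genotype difference was 0.04 ± 0.11 log2, both with overlap. Without a block, the type I and type III collagen genes had 12-week genotype differences of opposite sign, of which the Col1a1 difference passed the test. With slide as a block the Col1a2 difference (-0.06 log2) had the sign of the Col3a1 difference (-0.38 log2).

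**Figure D1:**
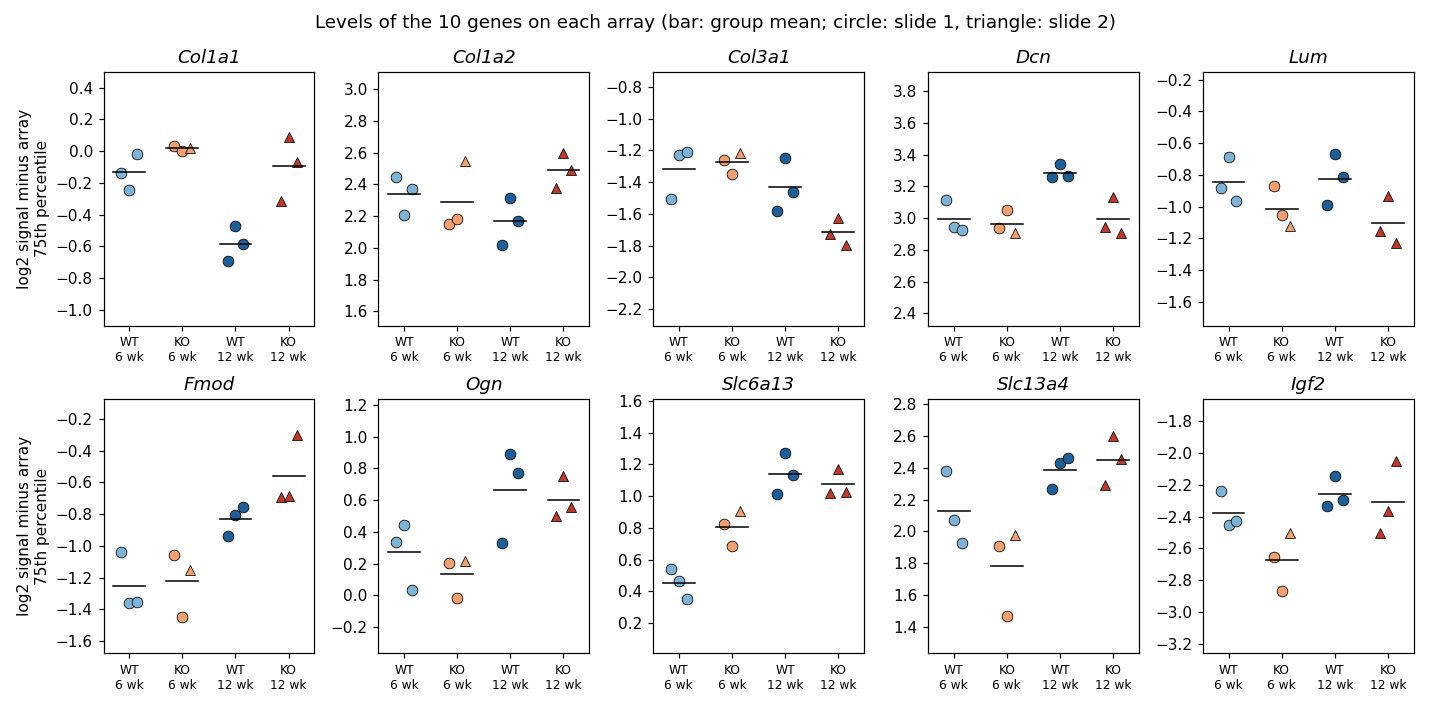
Level of each of the 10 genes on every array (vertical axis, log2 signal minus the array's log2 75th percentile) in the 4 groups of 3 mice, with points for single mice and bars for group means. Col1a1 in 12-week wild type (-0.69 to -0.47), Slc6a13 in 6-week wild type (0.35 to 0.54) and Col3a1 in 12-week knockout (-1.80 to -1.63) lay below all other mice for that gene.

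Dcn, the gene of decorin, a proteoglycan that binds collagen fibrils and TGF-beta, was lower in 12-week knockout than in 12-week wild type by 0.29 log2 (SE 0.08, adjusted p 0.0226), or 1.23-fold. Its levels were 3.11, 2.94 and 2.92 in 6-week wild type, 3.26, 3.34 and 3.26 in 12-week wild type, 2.94, 3.05 and 2.90 in 6-week knockout and 2.95, 3.13 and 2.91 in 12-week knockout. The 3 wild types at 12 weeks were the highest of the 12 brains, and none of the other 9 reached them. The 95% confidence interval ran from -0.48 to -0.11 log2. The call ended without 12-week wild type replicate 2 and without 12-week knockout replicate 1 or 3, where the adjusted p reached 0.0743. A block for slide gave -0.20 ± 0.14 with an adjusted p of 0.758. Under scaling to the median it was -0.18 log2 with an adjusted p of 0.180, a scaling that moved the median 12-week difference of all genes from 0.02 to 0.13 log2. The 12-week wild types lay 0.29 log2 above the 6-week wild types without overlap (adjusted p 0.139). In knockouts the age difference was 0.03 ± 0.08 log2, and the genotype difference at 6 weeks was -0.03 ± 0.08 log2 (adjusted p 0.873). Over both ages it was -0.16 ± 0.06 log2 (adjusted p 0.0561), which passed under quantile normalization (adjusted p 0.0139) and without 6-week knockout replicate 2 or 12-week knockout replicate 2 (lowest adjusted p 0.0327).

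Lum encodes lumican, a keratan sulfate proteoglycan that limits fibril width, and lies next to Dcn in the genome. Its levels were -0.88, -0.69 and -0.96 in 6-week wild type, -0.99, -0.67 and -0.81 in 12-week wild type, -0.87, -1.06 and -1.12 in 6-week knockout and -1.15, -0.93 and -1.23 in 12-week knockout. The groups overlapped as neighbours in order of level throughout. The knockouts lay below the wild types by 0.17 log2 at 6 weeks, 0.28 at 12 weeks (adjusted p 0.0881) and 0.23 over both ages (SE 0.08, adjusted p 0.0588), and no call was made. The value over both ages passed without 12-week wild type replicate 1, 6-week knockout replicate 1 or 12-week knockout replicate 2 (lowest adjusted p 0.0402). It was -0.12 ± 0.14 with an adjusted p of 0.772 when slide was a block. Age differences were 0.02 log2 in wild type and -0.09 log2 in knockout.

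Fmod, the gene of fibromodulin, which binds type I collagen and aids its cross-linking, was higher in 12-week than in 6-week knockout by 0.66 ± 0.14 log2 (adjusted p 0.0475), or 1.58-fold. Its levels were -1.04, -1.36 and -1.35 in 6-week wild type, -0.94, -0.81 and -0.75 in 12-week wild type, -1.06, -1.45 and -1.15 in 6-week knockout and -0.69, -0.68 and -0.30 in 12-week knockout. The knockout age groups did not overlap, and the 12-week knockouts were above the 9 other brains. This call lies close to the threshold: it was kept without 6-week knockout replicate 3 (adjusted p 0.0134) and ended without each of the other 11 arrays in turn, up to an adjusted p of 0.186. When slide was a block the difference was 0.59 ± 0.21 with an adjusted p of 0.50. In wild type the age difference was 0.42 ± 0.14 log2 (adjusted p 0.204), also without overlap, and the difference between the age effects of both genotypes was 0.25 ± 0.20 log2 (adjusted p 0.493). At 12 weeks the knockouts lay 0.28 ± 0.14 log2 above the wild types, without overlap (adjusted p 0.152), and at 6 weeks the difference was 0.03 log2.

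Ogn encodes osteoglycin, a small proteoglycan of fibrous tissue that is a marker of arachnoid and pial fibroblasts. Its levels were 0.33, 0.44 and 0.04 in 6-week wild type, 0.33, 0.89 and 0.77 in 12-week wild type, 0.21, -0.02 and 0.21 in 6-week knockout and 0.50, 0.75 and 0.55 in 12-week knockout. In both genotypes the older mean was higher, by 0.39 ± 0.16 log2 in wild type (adjusted p 0.273) and 0.47 ± 0.16 log2 in knockout (adjusted p 0.101), and neither passed. The knockout age groups were separate, while 12-week wild type replicate 1 lay within the range of the 6-week wild types. The genotype differences were -0.14 log2 at 6 weeks and -0.06 log2 at 12 weeks, and the 12-week interval of -0.41 to 0.28 log2 does not exclude differences of that size in either direction.

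Slc6a13, the gene of the GABA and taurine transporter GAT2, rose with age in wild type by 0.69 ± 0.09 log2 (adjusted p 0.0109), or 1.61-fold, the highest age difference in wild type among the 10 genes. Its levels were 0.54, 0.46 and 0.35 in 6-week wild type, 1.01, 1.27 and 1.14 in 12-week wild type, 0.82, 0.69 and 0.91 in 6-week knockout and 1.02, 1.17 and 1.03 in 12-week knockout. The 3 wild types at 6 weeks were the lowest of the 12 brains and the 12-week wild types all lay above them. The 95% confidence interval was 0.49 to 0.89 log2. All 6 arrays of this comparison were on slide 1, where the same difference had an adjusted p of 0.0400 on that slide alone. They differed in slide column, however: 12-week replicate 1 shared its column with the 6-week wild types and replicates 2 and 3 did not. With the column as a block the difference was 0.56 log2 with an adjusted p of 0.0960, and replicate 1 itself lay at 1.01, above the 6-week highest of 0.54. Without 12-week replicate 2 or 3 the call ended, at adjusted p up to 0.0611.

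In knockouts the age difference of Slc6a13 was 0.27 ± 0.09 log2 (adjusted p 0.107), without overlap. At 6 weeks the knockouts lay 0.35 ± 0.09 log2 above the wild types, again without overlap, with an unadjusted p of 0.00290 and an adjusted p of 0.101. This was the highest 6-week difference of the 10 genes and it was not called. At 12 weeks the difference was -0.07 ± 0.09 log2 and the groups overlapped. The change of the genotype difference from 6 to 12 weeks was -0.42 ± 0.13 log2 (adjusted p 0.157). The 6-week difference with slide as a block was 0.30 ± 0.10 with an adjusted p of 0.189, while a block for slide column gave 0.16 ± 0.16 log2. In order of level, 12-week wild type and 12-week knockout overlapped, 6-week knockout stood apart below them and 6-week wild type apart below that.

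Slc13a4 encodes the sodium-sulfate cotransporter of the meninges and choroid plexus, and sulfate is needed to build proteoglycan side chains. Its levels were 2.38, 2.07 and 1.93 in 6-week wild type, 2.27, 2.43 and 2.46 in 12-week wild type, 1.91, 1.47 and 1.98 in 6-week knockout and 2.29, 2.60 and 2.46 in 12-week knockout. The 6-week knockouts spread widely, with replicate 2 at 1.47 the lowest of the 12 brains, and lay below all 12-week knockouts. The knockout age difference was 0.67 ± 0.15 log2 with an adjusted p of 0.0547 and no call. Without 6-week knockout replicate 3 its adjusted p was 0.0100, and with slide as a block it was 0.47 ± 0.21 with an adjusted p of 0.606. In wild type the age difference was 0.26 ± 0.15 log2, with overlap (adjusted p 0.474). The 6-week genotype difference was -0.34 ± 0.15 log2 (adjusted p 0.270) and the 12-week difference 0.06 ± 0.15 log2.

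Igf2, the imprinted gene of insulin-like growth factor 2, a ligand of the IGF1 receptor, had levels of -2.24, -2.46 and -2.43 in 6-week wild type, -2.33, -2.14 and -2.30 in 12-week wild type, -2.66, -2.87 and -2.51 in 6-week knockout and -2.51, -2.37 and -2.05 in 12-week knockout. The 6-week knockouts lay below all 3 wild types of their age, by 0.30 log2 (SE 0.13), with an unadjusted p of 0.0419 and an adjusted p of 0.252. At 12 weeks the difference was -0.05 ± 0.13 log2 and the groups overlapped. The age differences were 0.12 ± 0.13 log2 in wild type and 0.37 ± 0.13 log2 in knockout (adjusted p 0.115), with overlap in the knockouts too, since 6-week replicate 3 reached the level of 12-week replicate 1. No comparison called Igf2.

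Comparison by comparison, 2 of the 10 genes were called at 12 weeks (Col1a1 higher and Dcn lower in knockout), where 33.0% of all 26497 genes were called, 18.4% higher and 14.6% lower. At 6 weeks 0 of 10 were called by limma, with 3 at an unadjusted p under 0.05 (Slc6a13, Slc13a4 and Igf2), where 0.936% of all genes were called, 0.547% higher and 0.389% lower, and 18.5% had an unadjusted p under 0.05. Over both ages 1 was called, Col1a1, against 32.7%, of which 19.4% higher and 13.3% lower. For age, 1 gene was called in wild type, Slc6a13, against 0.676% of all genes (0.449% higher and 0.226% lower), and 1 in knockout, Fmod, against 2.18% (1.20% higher and 0.981% lower). The test of a change of the genotype difference with age called 0 of 10, with 3 at an unadjusted p under 0.05 (Slc6a13, Col1a1 and Dcn), where 0.238% of all genes were called, 0.0604% above 0 and 0.177% below, and 19.7% had an unadjusted p under 0.05. The 12-week share of called members was thus no higher than that of all genes. Once slide was a block, 0 of the 10 were called at 12 weeks (0.117% of all genes), 0 at 6 weeks (0.491%) and 0 with the ages pooled (0.166%). For age, 0 were then called in knockout (0.0717%) and 1, Slc6a13, in wild type (1.58%). Scaling to the median moved the 12-week calls of all genes from 4887 higher and 3861 lower to 7187 higher and 2042 lower. At 6 weeks the same change of scaling moved them from 145 higher and 103 lower to 338 and 81, and quantile normalization gave 329 and 142. With the ages pooled, scaling to the median moved them from 5138 higher and 3533 lower to 8737 and 1890, and for age in knockout from 317 higher and 260 lower to 319 and 117.

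Groups that did not overlap were more common than calls. At 6 weeks 2 genes were separate and higher in knockout (Col1a1, Slc6a13) and 1 was separate and lower (Igf2), against 15.2% and 8.45% of all genes. At 12 weeks 3 were separate and higher (Col1a1, Col1a2, Fmod) and 2 separate and lower (Col3a1, Dcn), against 29.1% and 23.3%. For age in wild type 3 were separate and higher (Dcn, Fmod, Slc6a13) and 1 lower (Col1a1), against 12.6% and 12.2%. For age in knockout 4 were separate and higher (Ogn, Fmod, Slc6a13, Slc13a4) and 1 lower (Col3a1), against 11.9% and 14.5%. The median age difference of the 10 genes was 0.19 log2 in wild type and 0.23 log2 in knockout, with 7 genes above 0 and 3 below in each, beside medians of 0.00 and -0.01 over all genes. The median genotype difference was -0.04 log2 at 6 weeks and -0.06 log2 at 12 weeks, with 4 above 0 and 6 below at each age, beside 0.03 and 0.02 over all genes. These comparisons share arrays in pairs, so their values are not separate evidence.

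**Figure D2:**
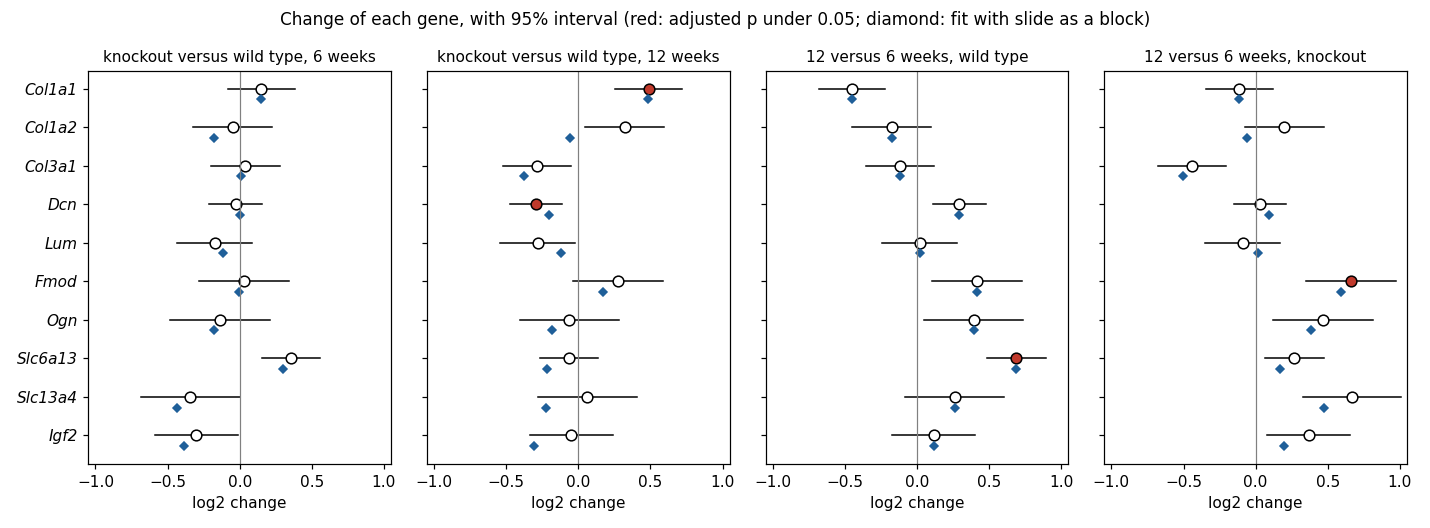
Difference in log2 level for each gene (horizontal axis) in the genotype and age comparisons, in 4 panels. Circles show the difference with its 95% confidence interval from limma, red where the adjusted p is under 0.05, and diamonds show the difference with slide as a block. Red circles are seen for Col1a1 (0.49) and Dcn (-0.29) at 12 weeks, for Slc6a13 (0.69) for age in wild type and for Fmod (0.66) for age in knockout.

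The age comparison in knockout depended on single arrays. Leaving out 6-week knockout replicate 3, the only array of its group on slide 2, 6 of the 10 genes were called, 5 higher at 12 weeks (Fmod, Slc13a4, Igf2, Slc6a13, Col1a2) and 1 lower (Col3a1). Over all genes 577 were called with it and 7444 without it, against 14 without 6-week knockout replicate 1 and 6 without replicate 2. The share of all genes called was thus 2.18% with replicate 3 and 28.1% without it, of which 16.2% were higher and 11.9% lower. In that reduced comparison the 6-week knockouts lay wholly on slide 1 and the 12-week knockouts wholly on slide 2. On slide 2 alone, 6-week replicate 3 against the 12-week knockouts gave differences of 0.59 log2 for Fmod, 0.47 for Slc13a4, 0.39 for Ogn and -0.50 for Col3a1, none of them called. That 1-array side carries no spread of its own and takes it from the 12-week knockouts.

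Within groups the genes differed in how much animals of a kind varied. The pooled SD within groups ran from 0.0915 log2 for Dcn to 0.204 for Ogn, with a median over all genes of 0.140. Across all 12 brains the highest level was 1.35 times the lowest for Dcn and 2.22 times for Fmod. Group membership took up 90.6% of the variance of Slc6a13 and 82.8% of that of Col1a1 but 44.8% of that of Col1a2, beside a median of 55.9% over all genes.

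Animals of a group that were high for a transporter tended to be high for Ogn as well. Over the deviations of the 12 brains from their group means, Pearson's r was 0.88 between Ogn and Slc6a13, 0.83 between Slc6a13 and Slc13a4 and 0.67 between Ogn and Slc13a4. Fmod and Igf2 formed another close pair at 0.86, Lum and Ogn had 0.78, Col1a2 and Slc6a13 0.72, and Fmod and Slc13a4 0.71. The chains of type I collagen, Col1a1 and Col1a2, had 0.59, and the genome neighbours Dcn and Lum 0.41. Of the 45 pairs 37 were above 0, with a median of 0.40 and a lowest value of -0.26 for Col3a1 and Fmod. Over the levels themselves, which include group differences, the median was 0.19, and the pairs ran from -0.78 for Col3a1 and Fmod to 0.86 for Ogn and Slc13a4. These values describe 12 brains that share slides and scaling, and they carry no test.

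**Figure D3:**
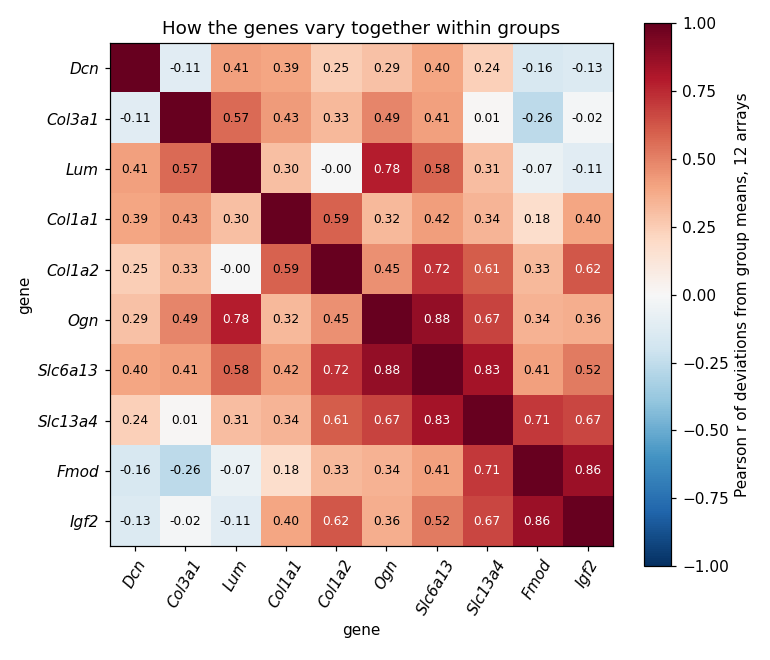
Pearson's r between the 10 genes over deviations of the 12 arrays from their group means (colour and printed value, from -1 to 1). The block of Ogn, Slc6a13 and Slc13a4 lies between 0.67 and 0.88, Fmod and Igf2 reach 0.86, and Col3a1 and Fmod have the lowest value at -0.26.

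The mean of the 10 standardised levels was highest in 12-week wild type replicate 2 at 0.89 and lowest in 6-week knockout replicate 2 at -0.85. Each of the 10 is part of the mean it is set beside here. Over the 12 arrays Ogn followed it most closely (r 0.92), then Slc13a4 (0.86) and Igf2 (0.76), while Col1a1 had -0.23 and Col3a1 -0.24. Over deviations from group means Slc6a13 was closest (0.94), then Ogn (0.85) and Slc13a4 (0.82), and Col1a1 had 0.66, Col3a1 0.43 and Dcn the lowest value at 0.39. Outside the 10, the genes most like it included Anxa1 and Dnase1l1 (r 0.88), Slc22a6 and Sulf1 (0.86), Slc6a12 and Tgfbi (0.84), Dapl1, Gpr151 and Atic (0.83), and Serping1 and Rab19 (0.83 and 0.82). Slc22a6, an organic anion transporter, and Tgfbi, a matrix protein, are on the list of other meningeal fibroblast genes used here, and Slc6a12 is the betaine and GABA transporter gene beside Slc6a13. Over deviations from group means the nearest were Scyl2 (0.96), Dnalc4, Pear1, Cdkn2d, Wee1 and Rcbtb2 (all 0.95 at 2 decimals), and Arsa and Slc22a6 (both 0.94). With 26497 genes and 12 arrays, values of this size are a description only.

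Among the other meningeal fibroblast genes, 54 of 57 listed could be tested. At 12 weeks 9 were higher and 4 lower in knockout, beside 18.4% and 14.6% of all genes, with a median difference of 0.04 log2. They included Igfbp6, an IGF-binding protein (0.60 ± 0.11 log2), the chemokine gene Cxcl12 (0.46 ± 0.09 log2), the organic anion transporter gene Slc22a8 (-0.62 ± 0.10 log2) and the transcription factor gene Tbx18 (-1.03 ± 0.18 log2). At 6 weeks limma called 0, with 11 at an unadjusted p under 0.05, beside 18.5% of all genes. For age in wild type 2 were higher and 0 lower, beside 0.449% and 0.226% of all genes, with a median of 0.17 log2. They were the growth factor gene Bmp6 (0.84 ± 0.12 log2) and Cyp1b1, a cytochrome P450 gene (0.60 ± 0.10 log2). For age in knockout 8 were higher and 0 lower, beside 1.20% and 0.981% of all genes, with a median of 0.29 log2. Among them were the retinoic acid-binding protein gene Crabp2 (0.54 ± 0.09 log2), the forkhead gene Foxc2 (0.78 ± 0.13 log2), Islr (0.66 ± 0.13 log2) and the type V collagen gene Col5a1 (0.52 ± 0.11 log2). Once slide was a block this age count in knockout was 0, with a median of 0.20 log2. Without 6-week knockout replicate 3 it was 22 higher and 2 lower, beside 16.2% and 11.9% of all genes. The 12-week count was 0 with slide as a block. In wild type the age call of Bmp6 ended without any 12-week wild type array, and that of Cyp1b1 without any of these or 6-week wild type replicate 1 or 2, at adjusted p up to 0.0682 and 0.0943. With slide column as a block, neither was called (adjusted p 0.0511 and 0.0757). The knockout age calls of Crabp2, Foxc2, Islr and Col5a1 ended without 7, 8, 10 and 10 of the 12 arrays in turn, at adjusted p up to 0.167, and were kept without 6-week knockout replicate 3.

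At 12 weeks the summed signal of these 54 genes was higher in knockout, where genotype and slide cannot be told apart. Sums of this kind add unlogged signals, so the brightest probes weigh most in them. Gene by gene, 28 of the 54 lay above 0 and 26 below at 12 weeks, with a median of 0.04 log2. The log2 sum ran from 8.44 to 8.58 in 6-week wild type and 8.51 to 8.57 in 12-week wild type. It ran from 8.39 to 8.97 in 6-week knockout and 8.93 to 9.02 in 12-week knockout. The 6-week knockouts, which lay on both slides, thus ran from below the wild types to within the range of the 12-week knockouts. The part of that sum in the results on the 10 genes was not tested. Of the listed genes, Col13a1 and Dpep1 were not well above background in any group. Over deviations from group means, the mean of the 54 genes followed Slc6a13 (r 0.94), Slc13a4 (0.82), Ogn (0.80) and Col1a2 (0.71) more closely than Fmod (0.44) and Dcn (0.33). Some lists described below followed the same genes about as closely. Pericyte and smooth muscle genes had 0.86 for Slc6a13, border macrophage genes 0.85 for Ogn, TGF-beta axis genes 0.84 for Slc13a4 and collagen-modifying enzymes 0.88 for Col1a2. Others did not, such as the choroid plexus genes with 0.29 for Slc6a13 and 0.09 for Ogn.

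Enzymes that modify and cross-link collagen were higher in 12-week knockout for 11 of 27 genes tested and lower for 1, with a median of 0.21 log2, beside 18.4% and 14.6% of all genes. The called genes included the lysyl hydroxylase genes Plod1 (0.66 ± 0.14 log2) and Plod3 (0.55 ± 0.09 log2), the prolyl 4-hydroxylase subunit gene P4ha2 (0.50 ± 0.09 log2) and the lysyl oxidase-like gene Loxl3 (0.51 ± 0.09 log2). The count with slide as a block was 0 and the median 0.09 log2, and with the column of the slide as a block there were 7 higher and 1 lower. At 6 weeks limma called 0 of the 27, with 5 at an unadjusted p under 0.05, beside 18.5% of all genes. For age in knockout it called 1, the prolyl 3-hydroxylase gene Leprel2 (0.40 ± 0.07 log2), beside 2.18% of all genes. That call ended without 9 of the 12 arrays in turn (adjusted p up to 0.136).

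Of 13 genes for collagen breakdown and its control, 3 were higher and 2 lower at 12 weeks in knockout, beside 18.4% and 14.6% of all genes. The inhibitors of metalloproteinases Timp1 (0.73 ± 0.17 log2) and Timp2 (0.60 ± 0.16 log2) were higher, and the membrane metalloproteinase gene Mmp16 (-1.24 ± 0.25 log2) and the collagen uptake receptor gene Mrc2 (-0.43 ± 0.10 log2) were lower. Mmp16 stood well above background on 1 of the 3 arrays of 12-week knockout and on all arrays of the other groups, so its level there is uncertain. Timp2 turned to -0.07 log2 with slide as a block, and its call ended without 12-week wild type replicate 2 or 12-week knockout replicate 1 (adjusted p up to 0.0577). For age in wild type 2 genes of this list were called higher, just under the threshold, beside 0.449% of all genes. They were the gelatinase gene Mmp9 and Reck, an inhibitor of metalloproteinases (0.53 ± 0.10 log2), both with an adjusted p of 0.0496. Mmp9 was not well above background on any 6-week wild type array, with mean levels of -5.84 at 6 and -5.17 at 12 weeks, so its difference is a bound, at least 1.50-fold, set from the lowest signal among probes well above background on those arrays. The calls of Mmp9 and Reck ended without 10 and 9 of the 12 arrays in turn, at adjusted p up to 0.157 and 0.151, and with slide column as a block (adjusted p 0.270 and 0.266). Timp1 was also higher at 12 than at 6 weeks in knockout, by 1.12 ± 0.17 log2. It was the only called gene of this list there, beside 2.18% of all genes. That call ended without 6 of the 12 arrays in turn, at adjusted p up to 0.117.

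Of 17 genes of the insulin-like growth factor axis around Igf2, 3 were higher and 2 lower at 12 weeks in knockout, beside 18.4% and 14.6% of all genes. Limma called 0 at 6 weeks and 0 for age in either genotype. An unadjusted p under 0.05 was seen for 3 genes at 6 weeks, beside 18.5% of all genes. For age it was seen for 2 in wild type and 4 in knockout, beside 14.8% and 26.9%. The binding protein genes Igfbp6 and Igfbp4 (0.37 ± 0.10 log2) were higher, and Igfbp7 (-1.09 ± 0.28 log2) and the insulin receptor gene Insr (-0.42 ± 0.12 log2) were lower. Igfbp7 levels were -3.42, -3.58 and -3.36 in 6-week wild type, -3.39, -3.43 and -3.52 in 12-week wild type, -3.37, -3.07 and -4.51 in 6-week knockout and -4.54, -4.48 and -4.59 in 12-week knockout. Replicate 3 of the 6-week knockouts, on slide 2, lay with the 12-week knockouts and apart from replicates 1 and 2, and with slide as a block the 12-week difference was 0.20 log2, of opposite sign. The call of Igfbp4 ended without 12-week wild type replicate 2 or 3 or 12-week knockout replicate 3, and that of Insr without each of the 6 arrays of 12-week mice, at adjusted p up to 0.0629 and 0.0719.

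TGF-beta, which decorin binds, drives collagen genes in fibroblasts. Of 21 genes of that axis 6 were higher and 3 lower at 12 weeks in knockout, beside 18.4% and 14.6% of all genes. Among them were the ligand gene Tgfb3 (0.46 ± 0.08 log2), the co-receptor gene Eng (0.54 ± 0.09 log2), the matrix gene Postn (-0.60 ± 0.13 log2) and Thbs1, an activator of the latent ligand (-0.56 ± 0.09 log2). At 6 weeks limma called 0 of 21, with 4 at an unadjusted p under 0.05, beside 18.5% of all genes. For age in wild type 2 of the 21 were higher and 0 lower, beside 0.449% and 0.226% of all genes. They were Tgif1 (0.44 ± 0.06 log2) and Ltbp2 (0.87 ± 0.14 log2). For age in knockout 1 was higher and 2 lower, beside 1.20% and 0.981% of all genes. Tgfb3 was higher (0.42 ± 0.08 log2), while Thbs1 (-0.52 ± 0.09 log2) and the inhibitory Smad gene Smad7 (-0.35 ± 0.07 log2) were lower. A list of 14 genes held carriers related to Slc6a13 and Slc13a4 and the enzymes that make the sulfate donor. At 12 weeks 1 of them was called higher and 0 lower, beside 18.4% and 14.6% of all genes. It was the enzyme gene Papss2 (0.30 ± 0.08 log2), with an adjusted p of 0.0509 without 12-week wild type replicate 3, and no carrier gene was called at that age. The call of Tgif1 ended without 12-week wild type replicate 2 or 3 or any 6-week wild type, and that of Ltbp2 without any 12-week wild type or 6-week wild type replicate 2 or 3, at adjusted p up to 0.0846 and 0.0973. With slide column as a block, neither Tgif1 nor Ltbp2 was called (adjusted p 0.140 and 0.0945). The knockout age calls of Thbs1, Smad7 and Tgfb3 ended without 9, 10 and 10 of the 12 arrays in turn, at adjusted p up to 0.175, and were kept without 6-week knockout replicate 3. No gene of these lists was called at 12 weeks or for age in knockout once slide was a block.

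**Figure D4:**
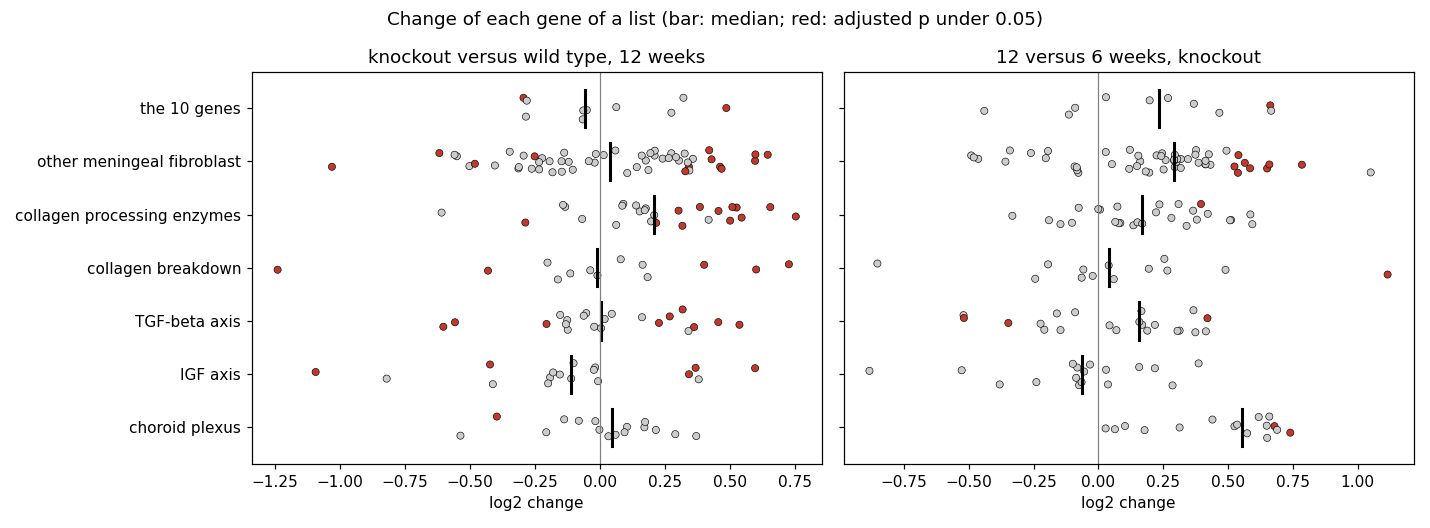
Log2 differences (horizontal axis) of the single genes of each list (points, red where the adjusted p is under 0.05) and their median (bar), beside the 10 genes, for genotype at 12 weeks and for age in knockout. The medians of the other meningeal fibroblast genes (0.29) and of choroid plexus genes (0.55) for age in knockout lie above the median of all genes at -0.01.

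Markers of tissues that border the meninges moved with some of these results. The 16 choroid plexus genes, all above background in some group, had a summed level of 7.04 to 7.33 in 6-week wild type, 7.15 to 7.32 in 12-week wild type, 6.57 to 7.13 in 6-week knockout and 7.15 to 7.36 in 12-week knockout, so the 6-week knockouts spread widest. For age in knockout 2 of 16 were called higher, beside 1.20% of all genes. The median of the 16 was 0.55 log2, and 0.28 log2 with slide as a block. The called genes were the tight junction gene Cldn2 (0.68 ± 0.15 log2) and the water channel gene Aqp1 (0.74 ± 0.16 log2). Both calls ended without 10 of the 12 arrays in turn (adjusted p up to 0.197). At 6 weeks 14 of the 16 lay below 0 in knockout against wild type, with a median of -0.28 log2. Genotype and slide column cannot be told apart at that age. Limma called 0, with 6 at an unadjusted p under 0.05, beside 18.5% of all genes. The 6-week differences of Slc13a4 (-0.34 log2) and Igf2 (-0.30 log2) had the same sign. At 12 weeks 1 was lower in knockout, the potassium channel gene Kcnj13 (-0.40 ± 0.14 log2), beside 14.6% of all genes. The Kcnj13 call ended without 10 of the 12 arrays in turn, at adjusted p up to 0.153. Over deviations from group means the choroid plexus genes followed Fmod (r 0.70), Slc13a4 (0.62) and Igf2 (0.56) but not Col1a1 (-0.25) or Dcn (-0.44). Other lists followed the same genes as closely: the collagen-modifying enzymes had 0.76 for Igf2 and 0.69 for Slc13a4. The pituitary genes had 0.72 for Fmod and 0.82 for Igf2, and the TGF-beta axis had 0.84 for Slc13a4. The part of the choroid plexus genes in the age differences of Fmod, Slc13a4 and Igf2 was not tested. Neither was their part in the 6-week differences of Slc13a4 and Igf2.

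Of 13 endothelial genes 1 was higher in knockout at 6 weeks, the tight junction gene Cldn5 (0.66 ± 0.09 log2), beside 0.547% of all genes. At that age 8 of the 13 had an unadjusted p under 0.05, beside 18.5% of all genes, with a median of 0.31 log2. Over both ages 7 were higher, beside 19.4% of all genes. At 6 weeks genotype and slide column cannot be told apart, and at 12 weeks genotype and slide cannot. At 12 weeks 3 were higher, where 18.4% of all genes were higher and 14.6% lower. The Cldn5 call ended without 6-week knockout replicate 1 (adjusted p 0.0583) and with slide column as a block (adjusted p 0.493). Of 14 pericyte and smooth muscle genes 1 was higher and 1 lower at 12 weeks, and of 9 border macrophage genes 3 were higher, among them Cbr2 (1.02 ± 0.21 log2) and the scavenger receptor gene Stab1 (0.50 ± 0.10 log2). Cd209f, another border macrophage gene, was the 1 of the 9 called higher with age in knockout (0.77 ± 0.15 log2), beside 1.20% of all genes. That call ended without 10 of the 12 arrays in turn (adjusted p up to 0.172). Type I collagen is also made by bone. Of 9 bone and cartilage genes tested at 12 weeks, Acan was higher (0.61 ± 0.12 log2) and Col9a1 lower (-0.71 ± 0.15 log2), beside 18.4% and 14.6% of all genes. At 6 weeks 8 of the 9 lay above 0 in knockout, with a median of 0.39 log2. Limma called 0 there, with 4 at an unadjusted p under 0.05, beside 18.5% of all genes. Over both ages 8 lay above 0 as well, with a median of 0.32 log2. Ibsp, Matn3 and Mmp13 were not well above background in any group. Of 10 skeletal muscle genes 1, Acta1, was called higher at 12 weeks (0.45 ± 0.15 log2), beside 18.4% of all genes. That call ended without 8 of the 12 arrays in turn (adjusted p up to 0.125), and Ckm and Mylpf were not well above background. Of 5 pituitary genes 1, Chga, was called higher at 12 weeks (0.65 ± 0.12 log2), beside 18.4% of all genes. The hormone genes Gh, Prl, Tshb and Fshb were not well above background. With slide as a block, Cbr2 was 0.38 log2, Stab1 0.23, Acan 0.27, Col9a1 -0.90, Acta1 0.55 and Chga 0.18 at 12 weeks, and none of these 6 was called (adjusted p 0.503 to 0.779). The 11 neuron and glia genes were all above background on all arrays. At 12 weeks 3 of them were higher and 0 lower in knockout, beside 18.4% and 14.6% of all genes. Of the 11, 8 lay above 0 and 3 below there, with a median of 0.23 log2.

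Gene order on GRCm38 places several of these genes in runs of related genes. Omd and Aspn, proteoglycan genes beside Ogn, had age differences of 0.35 and -0.49 log2 in knockout and 0.29 and 0.33 log2 in wild type. Prelp, beside Fmod, had a 12-week genotype difference of -0.56 log2, where Fmod lay 0.28 log2 higher. Slc6a12, beside Slc6a13, had age differences of 0.42 log2 in wild type and 0.27 log2 in knockout, and Col5a2, beside Col3a1, of 0.39 and 0.15 log2. None of these 5 neighbours was called in these comparisons. Other direct neighbours were called at 12 weeks, where 33.0% of all genes were called and genotype and slide cannot be told apart. They were Casd1 beside Col1a2 (-0.58 log2), Nol8 beside Ogn (-0.34 log2), 1810058I24Rik beside Slc13a4 (0.42 log2) and Mrpl23 beside Igf2 (0.40 log2).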

How the data were processed

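Total RNA of 12 whole brains was measured on Agilent arrays, 1 array per mouse, in 4 groups of 3. Replicate numbers were taken to mark separate mice, and p-values measure the spread between these samples. Per the submitters' processing notes, Agilent Feature Extraction (10.7.3.1) made the scan files. The authors deposited scan files whose signal columns are fluorescence intensity, per the file headers, and a value table, also an intensity, that differed from the processed signal by at most 0.498%. Other deposited values of 0 or 1 mark spots well above background, saturated or outlying, per the file headers.

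Outlier spots (107 to 220 of 59305 per array) were left out, no spot was saturated, and the processed signal was taken as log2 minus the array's log2 75th percentile. The number of arrays limits the precision. Probes that stood well above background on every array of some group were kept (37200), with the brightest probe per gene (26497 genes, 7091 with several probes). Genes were tested two-sided with limma 3.58.1 in R 4.3.3 (lmFit, eBayes, 4 group means, 8 residual degrees of freedom), with Benjamini-Hochberg adjustment over all genes in each of 6 comparisons. Errors with ± are standard errors. The steps were tested on simulated data. Alternatives covered background correction, scaling, filters, probe choice, slide, slide column, replicate block and leaving out each array.

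The 10 genes and all lists were chosen with earlier results of these data known. Named are all 10, up to 4 called genes per list and comparison with the lowest p, the 12 and 8 genes most like the 10 (1 of them is not reported here), and Il18; genome neighbours were singled out after their values were seen. Promoters come from RefSeq on GRCm38.p6. Figures used matplotlib 3.10.9.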

Additional observations from a re-analysis of the deposited data

Results flagged for a closer look

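Thbs1, an activator of latent TGF-beta, differed between ages in its genotype effect, by a test of that difference: the knockout minus wild type value was -0.84 ± 0.13 log2 for 12 weeks minus 6 weeks (limma, adjusted p 0.0429). Its levels were -3.16, -3.12 and -3.22 in 6-week wild type, -2.91, -2.89 and -2.74 in 12-week wild type, -3.06, -2.85 and -2.74 in 6-week knockout and -3.30, -3.50 and -3.41 in 12-week knockout. The call was kept without 6-week knockout replicate 1 or 3 and ended without each of the other 10 arrays in turn, with adjusted p up to 0.118, and with slide as a block (-0.98 log2, adjusted p 0.0563) and slide column as a block (-0.78 log2, adjusted p 0.113). None of the 10 collagen and fibroblast genes passed that test.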

How the results depend on the processing

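Of 2401 differences of single genes recomputed under the alternatives, 1966 kept their direction and their side of the threshold. Of the rest, 58 changed sign, 348 were no longer called and 29 were newly called. All values that changed sign were differences not called in the first place, except Timp2 and Igfbp7 at 12 weeks. With normexp background correction the log2 differences that took the opposite sign were Col3a1 -0.079 and Fmod -0.050 at 6 weeks, Igf2 0.059 at 12 weeks, Lum -0.012 for age in wild type, Dcn -0.0012 for age in knockout. With quantile normalization the log2 differences that took the opposite sign were Slc13a4 -0.031 and Igf2 0.054 at 12 weeks, Dcn -0.010 for age in knockout. With scaling to the median the log2 differences that took the opposite sign were Col1a2 0.044 and Dcn 0.065 at 6 weeks, Ogn 0.052, Slc6a13 0.049 and Igf2 0.065 at 12 weeks, Ogn 0.0041 for both ages pooled. With slide as a block the log2 differences that took the opposite sign were Dcn 0.0021 and Fmod -0.0050 at 6 weeks, Col1a2 -0.061, Slc13a4 -0.23, Timp2 -0.067 and Igfbp7 0.20 at 12 weeks, Col1a2 -0.12 for both ages pooled, Col1a2 -0.057 and Lum 0.017 for age in knockout, Ogn -0.0066 for the difference between ages. On slide 1 alone the log2 differences that took the opposite sign were Dcn 0.0021 and Fmod -0.0050 at 6 weeks. On slide 2 alone the log2 differences that took the opposite sign were Col1a2 -0.057 and Lum 0.017 for age in knockout. With slide column as a block the log2 differences that took the opposite sign were Col1a1 -0.0090, Col3a1 -0.19 and Fmod -0.13 at 6 weeks, Col1a2 -0.012 for both ages pooled, Lum -0.15 for age in wild type, Lum 0.059 for the difference between ages. Leaving out 1 array in turn gave a change of sign in log2 ranges of -0.18 to 0.022 for Col1a2 at 6 weeks, -0.056 to 0.092 for Col3a1 at 6 weeks, -0.072 to 0.032 for Dcn at 6 weeks, -0.058 to 0.10 for Lum for age in wild type, -0.050 to 0.15 for Fmod at 6 weeks, -0.094 to 0.19 for Ogn for the difference between ages, -0.23 to 0.051 for Ogn at 12 weeks, -0.13 to 0.00086 for Slc6a13 at 12 weeks, -0.18 to 0.049 for Igf2 at 12 weeks, -0.039 to 0.074 for Dcn for age in knockout, -0.011 to 0.14 for Slc13a4 at 12 weeks. Of the 10 genes, limma called 2 at 12 weeks, 1 with the ages pooled, 1 for age in each genotype and 0 at 6 weeks and for the difference between ages. The shares of all genes were 33.0% at 12 weeks, 32.7% with the ages pooled, 0.676% for age in wild type and 2.18% for age in knockout. Calls of all genes moved with the settings too, so the counts that follow are not read as a result about the 10. Normexp gave 1 at 6 weeks (597 over all genes), 5 over both ages and 3 for age in knockout. Quantile and median scaling each gave 2 over both ages (10627 over all genes with median scaling). No filter on dim probes gave 0 for age in knockout, and probes above background on all 12 arrays gave 3 (1016 over all genes). Slide as a block gave 0 for 12 weeks, for both ages and for knockout age, as slide 2 alone did for the last. Slide column as a block gave 0 over both ages and for age in each genotype. The replicate block gave 2 over both ages and 0 for age in knockout, although the numbers did not pair the animals: 2 of 12 arrays were most like an array of their own number, and same-numbered arrays had correlations of -0.20 to 0.11. Leaving out 1 array gave 1 to 3 at 12 weeks and over both ages, 0 to 1 for age in wild type and for the difference between ages, and 0 to 6 for age in knockout. Over all genes, the calls by limma, with their range over the alternatives and then over arrays left out, were 248 at 6 weeks (55 with slide 1 only to 597 with normexp, and 79 without 6-week knockout replicate 1 to 265 without 6-week knockout replicate 2), 8748 at 12 weeks (31 with slide as a block to 9229 with median scaling, and 5216 without 12-week knockout replicate 1 to 10474 without 6-week knockout replicate 3), 8671 for both ages pooled (44 with slide as a block to 10627 with median scaling, and 6444 without 12-week knockout replicate 1 to 9101 without 6-week knockout replicate 2), 179 for age in wild type (57 without a filter on dim probes to 418 with slide as a block, and 30 without 12-week wild type replicate 2 to 418 without 6-week knockout replicate 3), 577 for age in knockout (19 with slide as a block to 1016 with probes above background on all 12 arrays, and 6 without 6-week knockout replicate 2 to 7444 without 6-week knockout replicate 3) and 63 for the difference between ages (17 without a filter on dim probes to 124 with slide column as a block, and 10 without 12-week wild type replicate 2 to 4755 without 6-week knockout replicate 3). On slide 2 alone 0 of all genes were called for age in knockout. The cause was not tested. With 3 mice per group and signals well above background, the number of arrays limits precision.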
